A study of Homo sapiens with 6 samples.

Results

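The genes described here are 40 genes of glucose metabolism, chosen by name from textbook pathways: the enzymes of glycolysis and gluconeogenesis, the glucose and lactate transporters, the phosphoglucomutases and the enzymes of glycogen synthesis and breakdown. All 40 were found among the 60725 rows of each table, each on a single row, and 35 of them reached a mean of 1 TPM and were tested together with all 14781 genes past that filter. RNA was profiled in xenografts of the established cell line MHCC97L, which comes from a human hepatocellular carcinoma, with 3 libraries from tumours given recombinant human lumican (rhLUM A, B and C) and 3 from control tumours (Ctrl A, B and C). Lumican is a secreted proteoglycan of the extracellular matrix. The question was which transcripts differ when lumican is supplied. The sources used here do not give the dose, route, duration, host animal or the treatment of the controls. They also leave unsaid if each library is a tumour of its own, so p-values speak only of the spread among these 6 libraries, which may be technical.

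Glycolysis splits glucose into pyruvate in the cytosol. Glucose enters through transporters of the GLUT family, hexokinase traps it as glucose 6-phosphate, and phosphofructokinase commits it to the pathway. Pyruvate kinase closes the pathway, and lactate dehydrogenase with the monocarboxylate transporters disposes of the product as lactate. Glucose 6-phosphate can instead be turned by phosphoglucomutase into glucose 1-phosphate, the entry to and exit from glycogen. Normal hepatocytes use liver forms of several of these enzymes, store glycogen and export glucose, while hepatocellular carcinomas commonly carry the forms found in other tissues.

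Values are TPM, a transcript level per transcript length, relative to all transcripts of the library. TPM keeps no read depth, so the depth is unknown and no counting interval can be given. The median coefficient of variation of the 35 tested members was 3.12% in rhLUM and 2.90% in Ctrl. A log2 fold change is the mean log2(TPM + 1) of rhLUM less that of Ctrl, and the threshold was an adjusted p under 0.05 (limma, Benjamini-Hochberg over all genes tested). The median of all genes tested stood at 0.16 on that scale as deposited and at 0.01 after median-of-ratios scaling, 0.05 after rescaling without mitochondrial genes and -0.15 after upper quartile scaling, so small changes depend on the scaling. The mitochondrial share of TPM was 14.3 to 14.5% in rhLUM and 20.5 to 20.7% in Ctrl. Tumour tissue was sequenced in bulk, and fewer cells of a type and less RNA per cell cannot be told apart.

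In the rhLUM tumours PYGB, ALDOC, HK1 and GBE1 showed the largest rises, as deposited, among the tested members other than PGM5, which reached the filter only through its rhLUM libraries. The brain-type glycogen phosphorylase PYGB rose 3.01-fold in mean TPM while the liver-type PYGL fell, the phosphoglucomutases PGM1 and PGM2 rose, and the branching enzyme GBE1 rose 2.21-fold. Among the glycolytic enzymes HK1, ALDOC, PKM and PFKP rose, while ENO2 and the transporter SLC2A3 fell. The abundant ALDOA and ENO1 did not pass the test as deposited. Of the 35 tested members 22 rose and 8 fell, PGM5 included, that is 62.9% higher, against 44.5% of all genes tested, and 22.9% lower, against 22.3% of all genes. Either call was made for 85.7% of members, against 66.8% of all genes. A change of at least 0.5 on the log2 scale was reached by 12 members that rose (34.3%, against 25.9% of all genes) and 3 that fell (8.57%, against 12.3%). The 3 rhLUM libraries lay wholly above or below the 3 Ctrl libraries for 30 of the 35 (85.7%, against 71.4% of all genes). The median member changed by 0.32, against 0.16 for all genes. After median-of-ratios scaling 18 members were higher and 11 lower, against 5083 and 4555 of all 14781 genes tested. After upper quartile scaling 11 members were higher and 13 lower, against 3532 and 6193 of all genes. The balance thus turned for the members and for all genes alike.

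**Figure D1:**
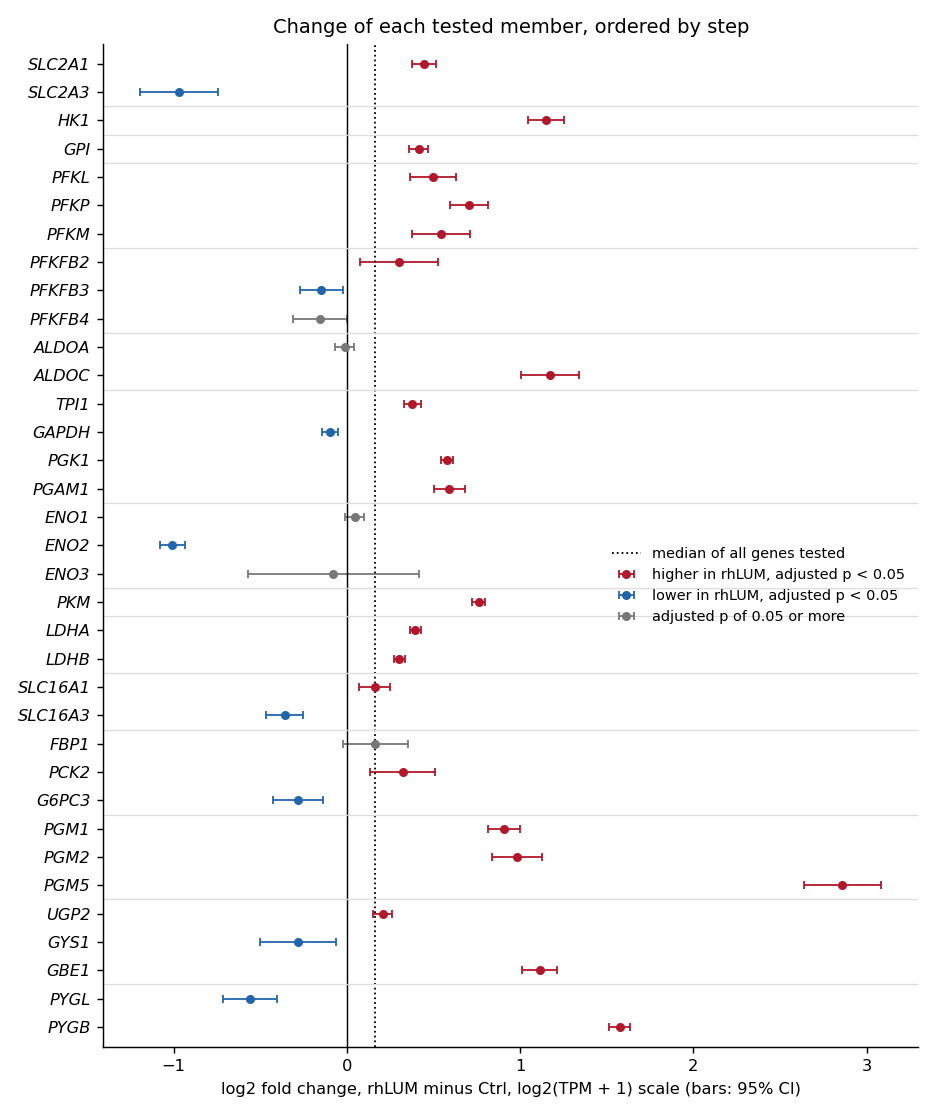
Each point is the log2 fold change of 1 tested member as deposited, rhLUM minus Ctrl on the log2(TPM + 1) scale, with its 95% confidence interval from limma, ordered by step from the transporters at the top to glycogen phosphorylase at the bottom, with grey lines between steps. PGM5 at 2.86, under the filter in its Ctrl libraries, and PYGB at 1.58 lie farthest to the right, ENO2 at -1.01 and SLC2A3 at -0.97 farthest to the left, and the dotted line marks the median of all genes tested at 0.16.

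The promoters of 5 members that hold ACGTG or GCGTG are shown. Of these, 4 carry main changes, and LDHA holds 2 copies of the E-box CACGTG, more than any other member. HK1, PFKP, PFKM, PGAM1, PKM, PGM1 and PYGL, also called with a change of at least 0.5, held neither ACGTG nor GCGTG and are not shown. PGK1 and PGM2, called with such a change and holding both, are not shown either. Each line gives the 250 bases before the RefSeq transcript start (GRCh38.p14), 5′ to 3′ on the gene's strand. ACGTG and GCGTG, the cores that hypoxia-inducible factors bind, are in capitals where either strand reads so. By the GENCODE coordinates given below, the windows of GBE1, ALDOC and ENO2 lie inside the gene, as GENCODE places its start further upstream. The windows of LDHA and PYGB lie partly inside the gene, since GENCODE starts LDHA at 18394388 and PYGB at 25248069.
PYGB, chr20:25247835-25248084, plus strand: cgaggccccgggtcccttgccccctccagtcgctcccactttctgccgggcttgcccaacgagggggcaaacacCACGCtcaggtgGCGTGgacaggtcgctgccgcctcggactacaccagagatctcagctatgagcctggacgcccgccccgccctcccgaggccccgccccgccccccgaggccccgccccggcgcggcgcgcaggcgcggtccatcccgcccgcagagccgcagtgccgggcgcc
GBE1, chr3:81761646-81761895, minus strand: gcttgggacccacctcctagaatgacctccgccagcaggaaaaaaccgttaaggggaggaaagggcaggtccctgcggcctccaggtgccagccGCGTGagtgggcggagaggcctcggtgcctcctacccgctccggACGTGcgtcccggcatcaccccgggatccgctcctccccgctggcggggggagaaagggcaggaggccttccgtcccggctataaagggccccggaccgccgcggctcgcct
ALDOC, chr17:28576896-28577145, minus strand: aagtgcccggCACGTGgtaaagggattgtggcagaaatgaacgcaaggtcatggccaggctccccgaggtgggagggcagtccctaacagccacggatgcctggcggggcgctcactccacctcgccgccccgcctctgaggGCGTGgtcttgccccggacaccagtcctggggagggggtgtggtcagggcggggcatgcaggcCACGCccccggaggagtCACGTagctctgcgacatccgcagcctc
ENO2, chr12:6914330-6914579, plus strand: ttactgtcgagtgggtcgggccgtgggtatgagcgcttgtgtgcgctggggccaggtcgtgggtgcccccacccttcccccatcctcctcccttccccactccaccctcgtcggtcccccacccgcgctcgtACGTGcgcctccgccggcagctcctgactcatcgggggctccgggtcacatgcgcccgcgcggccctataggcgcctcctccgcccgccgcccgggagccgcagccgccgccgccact
LDHA, chr11:18394313-18394562, plus strand: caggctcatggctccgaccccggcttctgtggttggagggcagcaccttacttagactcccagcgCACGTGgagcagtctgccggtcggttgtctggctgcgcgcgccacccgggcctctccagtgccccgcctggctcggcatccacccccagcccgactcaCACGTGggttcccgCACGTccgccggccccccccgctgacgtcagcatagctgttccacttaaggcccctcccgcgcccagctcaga
Of the 35 members with a window in the RefSeq table, 21 (60.0%) held ACGTG or GCGTG, against 43.1% of the 27305 genes with a window. The first window listed for each gene was used. CACGTG, which contains ACGTG on both strands, was found in 6 members (17.1%), against 6.49% of all windows. The members' windows were richer in G and C, with a median of 69.6% against 58.0% of all windows. A core stood in 9 of 19 windows of members that rose, in 5 of 7 of members that fell and in all 5 of members that were tested and not called. A match is only a match of letters, and ALDOC, which rose, and ENO2, which fell, both held one. The windows of PCK1, PFKFB2, PGM5, SLC16A1 and SLC2A3 were not used here.

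Of the steps with several forms, glycogen breakdown showed the largest difference in shares. Glycogen phosphorylase releases glucose 1-phosphate from glycogen, and PYGB and PYGL encode its brain and liver forms. PYGB (chromosome 20, 25248069 to 25298014, plus strand, GRCh38) had 232, 232 and 227 TPM in the rhLUM libraries, against 75.2, 76.5 and 78.1 TPM in the Ctrl libraries. Every rhLUM library lay far above every Ctrl library, with a log2 fold change of 1.58 (SE 0.03, limma adjusted p = 3.20e-08). PYGL (chromosome 14, 50857891 to 50944736, minus strand) had 52.8, 62.1 and 58.5 TPM in the rhLUM libraries, against 90.9, 82.2 and 83.3 TPM in the Ctrl libraries. It was lower in all 3 rhLUM libraries, with a log2 fold change of -0.56 (SE 0.07, limma adjusted p = 0.00024). PYGB made up 79.9 ± 1.35% in rhLUM and 47.3 ± 1.74% in Ctrl of the summed TPM of both genes, a difference of 32.7 percentage points that no scaling can move (SD, n = 3; exact permutation test, two-sided p = 0.1, the smallest that 3 against 3 allow). The ratio of PYGB to PYGL was 4.39, 3.73 and 3.89 in the rhLUM libraries, against 0.828, 0.93 and 0.938 in the Ctrl libraries. The sum of both genes was 288 ± 4.88 TPM in rhLUM and 162 ± 3.71 TPM in Ctrl (SD, n = 3). ABHD12, which overlaps PYGB on the opposite strand, rose as well, with 80.3, 87.6 and 82.3 TPM in the rhLUM libraries, against 27.2, 29.0 and 28.3 TPM in the Ctrl libraries, and the use of strand in counting is not given, so reads of the 2 genes cannot be told apart where they overlap. The muscle form, PYGM, was at 0.09 to 0.55 TPM in rhLUM and 0.08 to 0.17 TPM in Ctrl.

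All 3 genes of the phosphoglucomutase family were higher with rhLUM. PGM1 is the main enzyme that interconverts glucose 1-phosphate and glucose 6-phosphate, PGM2 acts on phosphopentoses as well, and PGM5 is a relative known from the adherens junctions of muscle cells with little or no enzyme activity. PGM1 had 38.4, 39.5 and 39.6 TPM in the rhLUM libraries, against 20.1, 20.9 and 20.4 TPM in the Ctrl libraries. PGM2 had 30.3, 30.7 and 28.9 TPM in the rhLUM libraries, against 15.7, 13.6 and 14.8 TPM in the Ctrl libraries. Both groups stood clearly apart for these genes, with log2 fold changes of 0.91 (SE 0.04, limma adjusted p = 1.61e-06) and 0.98 (SE 0.06, limma adjusted p = 8.89e-06). PGM5 (chromosome 9, 68328308 to 68531061, plus strand) had 12.2, 14.4 and 12.5 TPM in the rhLUM libraries, against 0.850, 0.940 and 0.990 TPM in the Ctrl libraries. Its Ctrl values were all under 1 TPM, so PGM5 passed the filter only through the group where it is high, and its difference is given as a description. The ratio of mean TPM was 14.1 and the log2 fold change 2.86, a size that depends on the pseudocount, since it was 3.67 with a pseudocount of 0.1. PGM5 made up 15.8 ± 1.08% in rhLUM and 2.57 ± 0.219% in Ctrl of the family's TPM, while the share of PGM1 was 47.7 ± 1.13% in rhLUM and 56.7 ± 2.10% in Ctrl. The family summed to 82.2 ± 2.13 TPM in rhLUM and 36.1 ± 0.618 TPM in Ctrl (SD, n = 3). Since PGM5 is known from muscle, the markers of muscle were read beside it. The 10 skeletal muscle markers summed to 1.88 to 2.84 TPM in rhLUM and 4.68 to 5.86 TPM in Ctrl, with 1 of them, TNNI2, reaching the filter and falling. The 7 smooth muscle and pericyte markers that were found, 2 of them past the filter and higher, summed to 22.1 to 23.6 TPM in rhLUM and 17.6 to 19.0 TPM in Ctrl. Whether these marker transcripts came from MHCC97L cells or from host reads cannot be told, and their part in the higher PGM5 level was not tested. ITGB3BP, which overlaps PGM1 on the opposite strand, changed by 0.23 on the log2 scale.

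Glycogen synthesis moved both ways. UGP2 makes UDP-glucose, GYS1 is the glycogen synthase of muscle and most other tissues, and GBE1 adds the branches. GBE1 (chromosome 3, 81489699 to 81762161, minus strand) had 55.1, 59.4 and 59.4 TPM in the rhLUM libraries, against 26.4, 26.4 and 25.9 TPM in the Ctrl libraries. Its rhLUM libraries all lay above its highest Ctrl library, with a log2 fold change of 1.11 (SE 0.04, limma adjusted p = 1.02e-06). GYS1 averaged 36.8 ± 4.97 TPM in rhLUM and 44.7 ± 2.41 TPM in Ctrl (SD, n = 3). Its fall of 0.28 on the log2 scale passed by a small margin (limma adjusted p = 0.0308) and held without rhLUM C but in no other fit that left a library out, with adjusted p of 0.0927 without rhLUM A, 0.102 without rhLUM B, 0.104 without Ctrl A, 0.0603 without Ctrl B and 0.0696 without Ctrl C. The ratio of GBE1 to GYS1 was 1.67, 1.69 and 1.40 in the rhLUM libraries, against 0.557, 0.615 and 0.589 in the Ctrl libraries. UGP2 had 164, 162 and 164 TPM in the rhLUM libraries, against 143, 141 and 139 TPM in the Ctrl libraries. The groups did not overlap (log2 fold change 0.21, limma adjusted p = 0.000158), although the call was lost after median-of-ratios scaling (0.041, adjusted p = 0.182). UGP2 passed as lower after upper quartile scaling (-0.15, limma adjusted p = 0.00339) and after a loess correction for the length and GC of transcripts (-0.15, limma adjusted p = 0.000894).

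**Figure D2:**
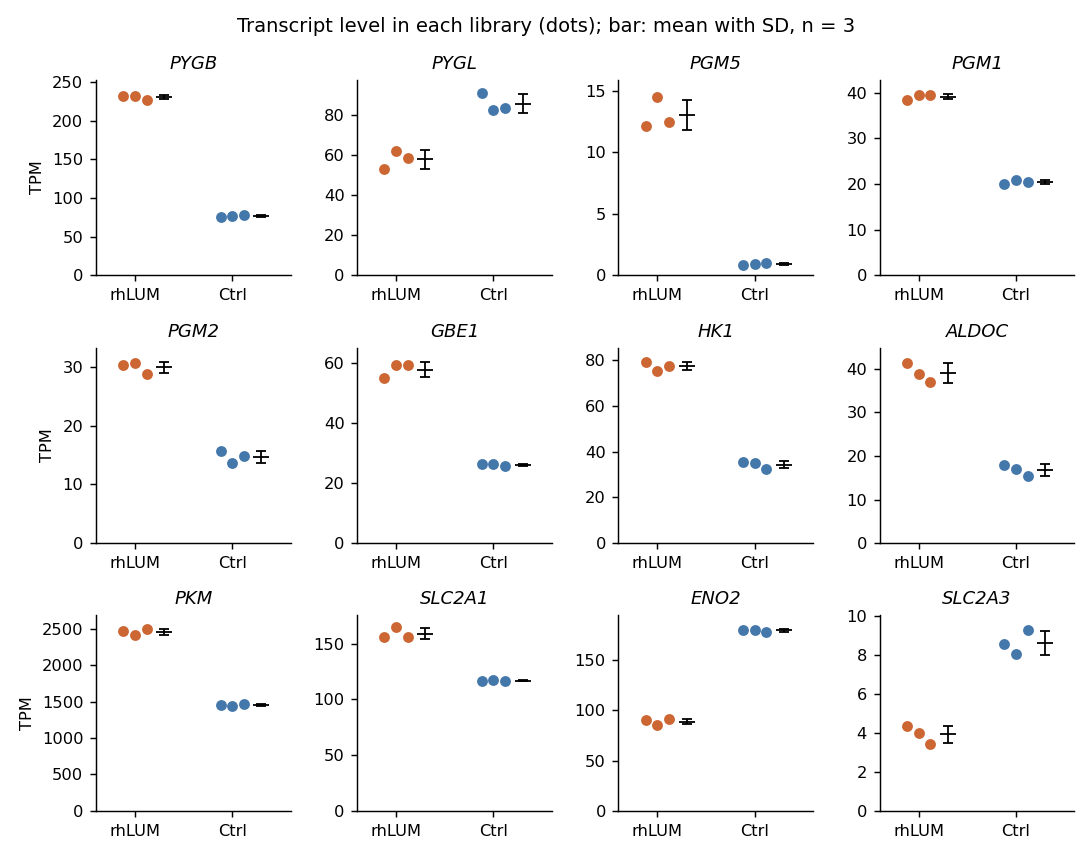
Dots show the TPM of 12 members in each library, rhLUM left and Ctrl right in each panel, on linear axes that start at 0 and differ between panels, and the bar beside them is the mean with SD (n = 3). PYGB stood at 227 to 232 TPM in rhLUM and 75.2 to 78.1 TPM in Ctrl. All 12 are called members, and no called member had overlapping groups, so the separation in each panel was set by the choice of genes. The groups also did not overlap for 71.4% of all genes tested.

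Glucose uptake is served by the GLUT transporters SLC2A1 (GLUT1), found in most cells, SLC2A2 (GLUT2) of hepatocytes and SLC2A3 (GLUT3), a high-affinity form best known from neurons. SLC2A1 had 156, 165 and 156 TPM in the rhLUM libraries, against 116, 117 and 116 TPM in the Ctrl libraries. It was higher in every rhLUM library, with a log2 fold change of 0.44 (SE 0.03, limma adjusted p = 1.19e-05), and this call was lost after upper quartile scaling (0.0909, adjusted p = 0.0623). SLC2A3 (chromosome 12, 7919230 to 7936275, minus strand) had 4.36, 3.98 and 3.46 TPM in the rhLUM libraries, against 8.57, 8.06 and 9.28 TPM in the Ctrl libraries. It was lower in every rhLUM library, with a log2 fold change of -0.97 (SE 0.09, limma adjusted p = 8.52e-05). SLC2A14, a close copy of SLC2A3 with which reads can be shared, was at 0.04 to 0.24 TPM in rhLUM and 0.06 to 0.14 TPM in Ctrl. SLC2A2 was near 0, at 0.05, 0 and 0 TPM in rhLUM and 0.02, 0.03 and 0.06 TPM in Ctrl. SLC2A1 held 97.6 ± 0.302% in rhLUM and 93.1 ± 0.491% in Ctrl of the summed TPM of these transporters (SD, n = 3; exact permutation test, two-sided p = 0.1).

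Hexokinase phosphorylates glucose on entry. HK1, the form of most adult tissues, had 79.0, 75.4 and 77.5 TPM in the rhLUM libraries, against 35.6, 34.9 and 32.4 TPM in the Ctrl libraries. Its lowest rhLUM library was far above its highest Ctrl library, with a log2 fold change of 1.15 (SE 0.04, limma adjusted p = 1.04e-06). HK2, the form many tumours express, was scarce, at 0.23, 0.32 and 0.37 TPM in rhLUM and 0.60, 0.43 and 0.55 TPM in Ctrl, and was under the filter. HKDC1, a further hexokinase that is not among the 40, rose too, with 71.3, 76.3 and 71.2 TPM in the rhLUM libraries, against 51.2, 52.9 and 50.5 TPM in the Ctrl libraries. GPI, which turns glucose 6-phosphate into fructose 6-phosphate, had 369, 361 and 366 TPM in the rhLUM libraries, against 276, 267 and 278 TPM in the Ctrl libraries. All 3 rhLUM values were higher, with a log2 fold change of 0.41 (SE 0.02, limma adjusted p = 4.96e-06), a call lost after upper quartile scaling (0.0604, adjusted p = 0.0824).

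Phosphofructokinase makes the committed step, as tetramers of the platelet (PFKP), liver (PFKL) and muscle (PFKM) subunits, and all 3 genes rose. PFKP had 149, 166 and 163 TPM in the rhLUM libraries, against 94.3, 98.6 and 98.2 TPM in the Ctrl libraries. PFKM had 35.1, 34.9 and 39.5 TPM in the rhLUM libraries, against 26.0, 25.5 and 22.7 TPM in the Ctrl libraries. PFKL averaged 34.8 ± 2.08 TPM in rhLUM and 24.3 ± 0.942 TPM in Ctrl (SD, n = 3). The groups did not overlap for any of them, with log2 fold changes of 0.71, 0.54 and 0.50 in that order (limma adjusted p = 1.11e-05, 0.000379 and 0.000183). The calls of PFKM (0.20, adjusted p = 0.0518) and PFKL (0.15, adjusted p = 0.0507) were lost after upper quartile scaling. PFKP made up 69.1 ± 1.89% in rhLUM and 66.4 ± 1.02% in Ctrl of the summed TPM of these subunits. SENP1, which overlaps PFKM on the opposite strand, rose by 1.21 on the log2 scale, and its reads cannot be told apart from those of PFKM where they overlap.

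The PFKFB enzymes make and remove fructose 2,6-bisphosphate, the allosteric activator of phosphofructokinase. PFKFB3, the form with the strongest kinase activity, had 43.0, 43.8 and 41.5 TPM in the rhLUM libraries, against 44.7, 50.6 and 47.2 TPM in the Ctrl libraries. The rhLUM libraries were all lower, by a small amount (-0.15, limma adjusted p = 0.0402), and the call held without Ctrl A but in no other fit that left a library out, with adjusted p of 0.0809 without rhLUM A, 0.0586 without rhLUM B, 0.117 without rhLUM C, 0.101 without Ctrl B and 0.0859 without Ctrl C. PFKFB2 averaged 8.74 ± 0.756 TPM in rhLUM and 6.92 ± 0.718 TPM in Ctrl (SD, n = 3; log2 fold change 0.30, limma adjusted p = 0.0261). Its call was lost without rhLUM A (adjusted p = 0.0771), rhLUM B (0.0889), Ctrl B (0.0603) or Ctrl C (0.0818) and after median-of-ratios scaling (0.15), and its direction turned after upper quartile scaling (-0.015) and the length and GC correction (-0.16). YOD1, which overlaps PFKFB2 on the opposite strand, averaged 9.23 ± 0.560 TPM in rhLUM and 7.35 ± 0.0985 TPM in Ctrl and rose by 0.29 on the log2 scale, and reads of PFKFB2 and YOD1 cannot be told apart where they overlap. PFKFB4 averaged 15.8 ± 0.666 TPM in rhLUM and 17.7 ± 1.31 TPM in Ctrl and did not pass the test (95% confidence interval of the change -0.31 to 0.00), but it passed as lower without Ctrl B (-0.21, adjusted p = 0.0222) and after median-of-ratios scaling (-0.31, adjusted p = 0.0055). PFKFB1, the liver form, was at 0.05 to 0.14 TPM in rhLUM and 0.10 to 0.21 TPM in Ctrl.

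Aldolase cleaves fructose 1,6-bisphosphate. ALDOA, the ubiquitous form, had 1786, 1752 and 1757 TPM in the rhLUM libraries, against 1816, 1716 and 1808 TPM in the Ctrl libraries. The groups overlapped, with a log2 fold change of -0.01 (95% confidence interval -0.07 to 0.04). After median-of-ratios scaling ALDOA passed as lower (-0.18, adjusted p = 0.00069), as it did under each other scaling and the length and GC correction, and without Ctrl A the difference was 0.0031 with no call. ALDOC (chromosome 17, 28573115 to 28577264, minus strand), the form best known from brain, had 41.5, 38.8 and 37.0 TPM in the rhLUM libraries, against 18.0, 17.1 and 15.3 TPM in the Ctrl libraries. Each rhLUM library stood well above each Ctrl library, with a log2 fold change of 1.17 (SE 0.07, limma adjusted p = 7.65e-06). ALDOC remained minor, at 2.17 ± 0.104% in rhLUM and 0.935 ± 0.0830% in Ctrl of the TPM of both genes.

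The middle of the pathway held genes that moved apart from each other. GAPDH, the oxidising step and the most abundant member, had 5880.3, 5759.9 and 5691 TPM in the rhLUM libraries, against 6265, 6027 and 6274 TPM in the Ctrl libraries. It was lower in all 3 rhLUM libraries by 0.10 on the log2 scale (limma adjusted p = 0.00294), a difference that was not called in limma without the variance trend (adjusted p = 0.0676). PGK1, the first step that yields ATP, had 1519.8, 1503 and 1524 TPM in the rhLUM libraries, against 1027, 1018 and 999 TPM in the Ctrl libraries. PGAM1, which moves the phosphate group of phosphoglycerate, had 255, 241 and 244 TPM in the rhLUM libraries, against 167, 156 and 167 TPM in the Ctrl libraries. Both were higher in every rhLUM library, with log2 fold changes of 0.58 and 0.59 (SE 0.02 and 0.04, limma adjusted p = 2.46e-07 and 8.82e-06). TPI1, which interconverts the triose phosphates, averaged 1169.7 ± 15.5 TPM in rhLUM and 899.8 ± 20.8 TPM in Ctrl (SD, n = 3; 0.38, limma adjusted p = 4.90e-06), a call lost after upper quartile scaling (0.0234, adjusted p = 0.357). Processed pseudogenes share sequence with these genes. The 61 GAPDH pseudogenes in the tables summed to 0.127% of the GAPDH level in rhLUM and 0.119% in Ctrl, and the 13 PGAM1 pseudogenes to 0.608% of the PGAM1 level in rhLUM and 2.06% in Ctrl.

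Enolase was led by ENO1, the ubiquitous form, with 1354, 1303 and 1330.1 TPM in the rhLUM libraries, against 1281, 1260.1 and 1325 TPM in the Ctrl libraries. Its groups overlapped (log2 fold change 0.04, 95% confidence interval -0.01 to 0.10). It passed as higher without Ctrl C (0.0651, adjusted p = 0.0386), and as lower after median-of-ratios scaling (-0.12), upper quartile scaling (-0.31), rescaling without mitochondrial genes (-0.069) and the length and GC correction (-0.11). ENO2 (chromosome 12, 6913745 to 6923698, plus strand), the neuron-specific enolase that many tumours also express, had 89.7, 85.4 and 90.9 TPM in the rhLUM libraries, against 179.9, 179 and 178 TPM in the Ctrl libraries. All 3 rhLUM values were far below the Ctrl values, with a log2 fold change of -1.01 (SE 0.03, limma adjusted p = 3.76e-07). ENO2 held 6.24 ± 0.129% in rhLUM and 12.2 ± 0.318% in Ctrl of the TPM of the enolases (SD, n = 3; exact permutation test, two-sided p = 0.1). The 6 neuronal markers, of which 2 reached the filter and 1 fell, summed to 33.7 to 35.1 TPM in rhLUM and 41.5 to 44.6 TPM in Ctrl, of which TUBB3 gave 27.3 to 28.0 TPM in rhLUM and 34.6 to 37.6 TPM in Ctrl. Whether these marker transcripts came from MHCC97L cells or from host reads cannot be told, and their part in the fall of ENO2 was not tested. ENO3, the muscle form, averaged 3.69 ± 0.950 TPM in rhLUM and 3.97 ± 1.16 TPM in Ctrl, with overlapping groups (log2 fold change -0.08, 95% confidence interval -0.57 to 0.42), and its sign turned without Ctrl A (0.0985) or rhLUM C (0.0727). It overlaps the far more abundant PFN1 on the opposite strand.

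PKM, the pyruvate kinase of most tissues and tumours, had 2471, 2418 and 2500.2 TPM in the rhLUM libraries, against 1449.9, 1444 and 1464 TPM in the Ctrl libraries. All 3 rhLUM libraries were higher by a wide margin, with a log2 fold change of 0.76 (SE 0.02, limma adjusted p = 7.75e-08). The tables give 1 value per gene, so the alternatively spliced forms M1 and M2 of PKM were not distinguished. PKLR, the liver and red cell form, was at 0.33, 0.41 and 0.43 TPM in rhLUM and 0.11, 0.09 and 0.11 TPM in Ctrl. The ratio of PKM to GAPDH was 0.420, 0.420 and 0.439 in the rhLUM libraries, against 0.231, 0.24 and 0.233 in the Ctrl libraries. This ratio needs no scaling and shows unequal change of the 2 genes.

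Lactate dehydrogenase is a tetramer of A and B subunits, of which LDHA favours the making of lactate. LDHA had 1528, 1541 and 1552 TPM in the rhLUM libraries, against 1180.3, 1164 and 1169 TPM in the Ctrl libraries. LDHB had 1513, 1520.5 and 1524 TPM in the rhLUM libraries, against 1225, 1248 and 1219 TPM in the Ctrl libraries. Both were higher in every rhLUM library, with log2 fold changes of 0.39 and 0.30 (SE 0.01 each, limma adjusted p = 5.35e-07 and 2.06e-06), but after upper quartile scaling neither was called and LDHB turned to -0.051. LDHA made up 50.3 ± 0.110% in rhLUM and 48.8 ± 0.434% in Ctrl of the TPM of both genes, a difference of 1.58 percentage points. SLC16A3, the monocarboxylate transporter MCT4 of lactate-exporting cells, had 113, 108 and 115 TPM in the rhLUM libraries, against 139, 139.5 and 153 TPM in the Ctrl libraries. It was lower in all 3 rhLUM libraries, with a log2 fold change of -0.36 (SE 0.05, limma adjusted p = 0.000318). SLC16A1 (MCT1) averaged 36.4 ± 1.07 TPM in rhLUM and 32.5 ± 0.137 TPM in Ctrl (SD, n = 3; 0.16, limma adjusted p = 0.00726). This call was lost after rescaling without mitochondrial genes (0.052) and after median-of-ratios scaling (-0.0017). SLC16A1 passed as lower after upper quartile scaling (-0.18, limma adjusted p = 0.0116) and the length and GC correction (-0.18, limma adjusted p = 0.00426). The share of SLC16A1 in the TPM of both transporters was 24.6 ± 0.860% in rhLUM and 18.4 ± 0.881% in Ctrl. BSG, the chaperone of these transporters at the membrane, averaged 326 ± 1.77 TPM in rhLUM and 349 ± 18.7 TPM in Ctrl. BSG was not called (log2 fold change -0.099, limma adjusted p = 0.0523).

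**Figure D3:**
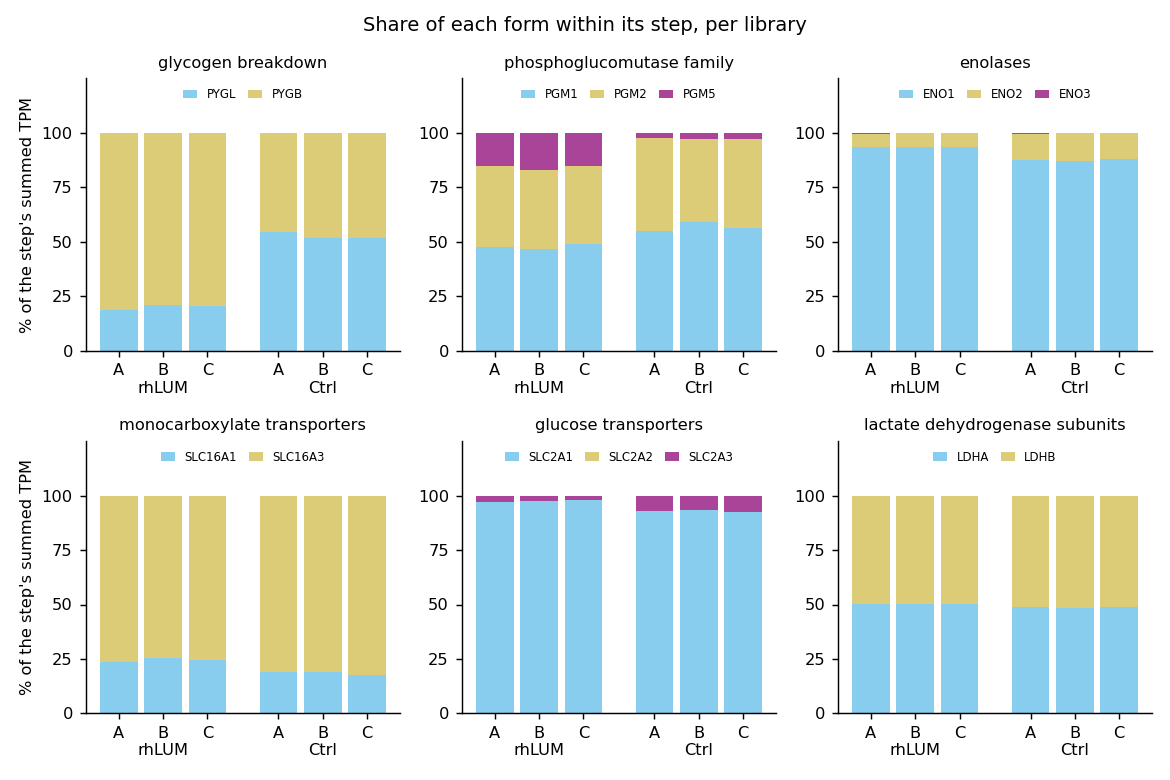
Stacked bars show the share of each form in the summed TPM of its step, as percent, in each rhLUM library (3 left bars) and each Ctrl library (3 right bars) for 6 steps. PYGB took 79.9% in rhLUM and 47.3% in Ctrl, PGM5 15.8% in rhLUM and 2.57% in Ctrl, and ENO2 6.24% in rhLUM and 12.2% in Ctrl, while the subunits of lactate dehydrogenase stayed within 2 percentage points of equal shares.

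Gluconeogenesis reverses glycolysis through its own enzymes. PCK1, the cytosolic phosphoenolpyruvate carboxykinase of liver, was at 0.02, 0 and 0.01 TPM in rhLUM and 0, 0 and 0.12 TPM in Ctrl, and G6PC, the glucose 6-phosphatase of liver, did not exceed 0.04 TPM in any library. The mitochondrial PCK2 averaged 14.3 ± 1.04 TPM in rhLUM and 11.2 ± 0.895 TPM in Ctrl (SD, n = 3; log2 fold change 0.32, limma adjusted p = 0.00871), a call lost after median-of-ratios scaling (0.17, adjusted p = 0.104) and turned to -0.0063 after upper quartile scaling. FBP1, the fructose 1,6-bisphosphatase, averaged 17.7 ± 1.91 TPM in rhLUM and 15.7 ± 0.430 TPM in Ctrl and was not called (95% confidence interval of the change -0.02 to 0.35). It passed as higher without rhLUM C (0.24, adjusted p = 0.0163) and was at -0.17 with no call after upper quartile scaling. G6PC3, the ubiquitous glucose 6-phosphatase, had 47.0, 40.0 and 42.8 TPM in the rhLUM libraries, against 54.2, 51.1 and 52.8 TPM in the Ctrl libraries. It was lower in every rhLUM library, with a log2 fold change of -0.28 (SE 0.06, limma adjusted p = 0.00479).

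Summed by step, the hexokinases HK1 and HK2 held 77.6 ± 1.77 TPM in rhLUM and 34.8 ± 1.64 TPM in Ctrl. This sum leaves out HKDC1, which averaged 72.9 TPM in rhLUM and 51.5 TPM in Ctrl. Phosphofructokinase subunits held 230.4 ± 9.38 TPM in rhLUM and 146 ± 1.48 TPM in Ctrl and pyruvate kinases 2463 ± 41.8 TPM in rhLUM and 1453 ± 10.3 TPM in Ctrl (SD, n = 3). The sums of HK1 with HK2, of the phosphofructokinase subunits and of the pyruvate kinases were higher in rhLUM under each scaling tried. The exact permutation p of each was 0.1, the smallest possible. Aldolases held 1804 ± 20.5 TPM in rhLUM and 1796 ± 55.5 TPM in Ctrl with overlapping libraries (exact permutation test, two-sided p = 0.9), and enolases 1421 ± 27.9 TPM in rhLUM and 1471 ± 31.6 TPM in Ctrl (p = 0.2). The log2 ratio of the aldolase sum was 0.0061 as deposited, -0.16 after median-of-ratios scaling, and also below 0 without Ctrl B (-0.0193) or rhLUM A (-0.0034). The joint sum of TPI1, GAPDH, PGK1 and PGAM1 was 8709 ± 118 TPM in rhLUM and 8266 ± 164 TPM in Ctrl, and this small difference turned after median-of-ratios scaling (log2 ratio -0.093), upper quartile scaling (-0.28) and rescaling without mitochondrial genes (-0.038). All 40 members held 19212 ± 147 TPM in rhLUM and 16707 ± 256 TPM in Ctrl, a log2 ratio of 0.20 that was 0.033 after median-of-ratios scaling and -0.15 after upper quartile scaling. The sums of the steps differed in direction in the same libraries. The mean sum in rhLUM was 2.23 times that in Ctrl for HK1 with HK2 and 0.841 times for the monocarboxylate transporters. The phosphoglucomutase sum, at a log2 ratio of 1.19, includes PGM5, which passed the filter only through rhLUM, so it is a description only.

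**Figure D4:**
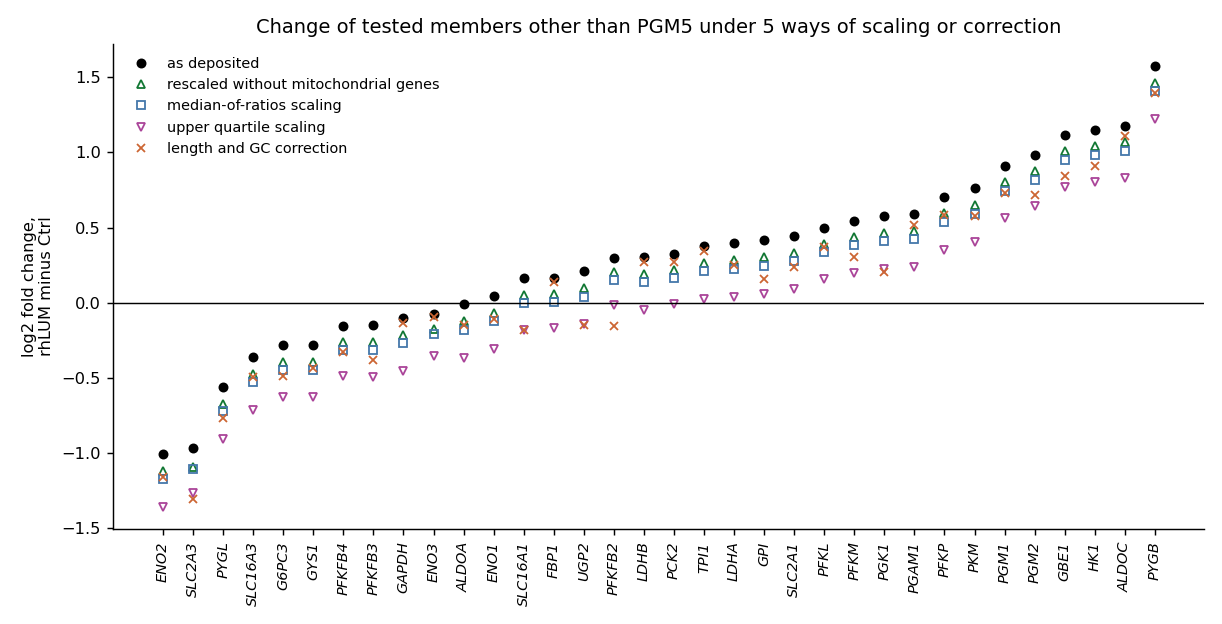
Points give the log2 fold change, rhLUM minus Ctrl, of the 34 tested members other than PGM5 as deposited and under 4 other scalings or corrections, in order of the value as deposited. ENO1, SLC16A1, FBP1, UGP2, LDHB, PFKFB2 and PCK2 lie above 0 as deposited and below 0 under at least 1 other setting, while PYGB, ALDOC, HK1 and GBE1 stay at 0.77 or more and ENO2 and SLC2A3 at -0.97 or less.

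Other genes of glucose metabolism, from 7 lists drawn up from textbook pathways, are given for comparison, with changes as log2 fold changes. Of 89 tested genes in these lists 49 rose and 20 fell, against 44.5% higher and 22.3% lower of all genes. In the pentose phosphate pathway, which takes glucose 6-phosphate to NADPH and ribose, 5 of 8 tested genes rose and 1 fell. TKT, RPE and PGD changed by 0.60, 0.59 and 0.50, while H6PD, an enzyme of the endoplasmic reticulum, changed by -0.65. Among routes to UDP-sugars and hexosamines 6 of 11 rose and 3 fell. UGDH, which oxidises UDP-glucose to UDP-glucuronate, had 610.0, 614 and 649 TPM in the rhLUM libraries, against 223, 228 and 219.7 TPM in the Ctrl libraries. GFPT1, the entry to hexosamine synthesis, changed by 0.91, GNPNAT1 by 0.58 and UXS1 by 0.47. The galactokinase relative GALK2 changed by 0.52, a call lost after the length and GC correction (0.12, adjusted p = 0.111).

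Of 18 other glycogen genes 9 rose and 4 fell, and values are again log2 fold changes. STBD1, which tethers glycogen to membranes, changed by 1.32, PHKA1, a regulatory subunit of phosphorylase kinase, by 1.11, and GSK3B, a kinase that inhibits glycogen synthase, by 0.81. PPP1R3F, a phosphatase subunit, changed by 0.69, a call lost without rhLUM A (adjusted p = 0.0628) or Ctrl C (0.0553) and after upper quartile scaling (0.47, adjusted p = 0.0874). At the entry of pyruvate into mitochondria 8 of 14 rose and 3 fell. DLD and DLAT, subunits of the pyruvate dehydrogenase complex, changed by 0.95 and 0.64. The kinases that switch that complex off moved apart, with PDK3 at 0.70, PDK2 at 0.61 and PDK4 at 0.49, all higher, and PDK1 at -0.57. The call of PDK2 was lost after upper quartile scaling (0.32, adjusted p = 0.0825). PDK1 had 20.2, 18.4 and 20.5 TPM in the rhLUM libraries, against 29.8, 30.1 and 29.3 TPM in the Ctrl libraries.

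Of 9 other forms of glycolytic and gluconeogenic enzymes 3 rose and 3 fell. On the log2 scale TIGAR, which lowers fructose 2,6-bisphosphate, changed by 1.02, and PGAM5, a mitochondrial phosphatase named for its likeness to phosphoglycerate mutase, by 0.82. Pyruvate carboxylase, PC, changed by -0.35, a call lost without rhLUM B (adjusted p = 0.0634), rhLUM C (0.0525), Ctrl A (0.0751) or Ctrl C (0.0793) and with no filter (0.0565), and the glucose 6-phosphate carrier SLC37A4 by -0.30. Of 8 other transporters 4 rose and 2 fell. SLC2A10 changed by 1.10, the sodium-glucose cotransporter SLC5A1 by 0.69 and SLC2A6 by -0.50. The inositol transporter SLC2A13 changed by 0.46, a call lost after upper quartile scaling (0.13, adjusted p = 0.1) and after the length and GC correction (0.0012, adjusted p = 0.989). SLC5A9 changed by -0.57, a call lost with a replicate block (adjusted p = 0.0635), with no filter (0.0885) and in each fit that left out a library other than rhLUM A (adjusted p = 0.0657 without rhLUM B, 0.0568 without rhLUM C, 0.0664 without Ctrl A, 0.0743 without Ctrl B and 0.109 without Ctrl C, with a change of -0.73 without rhLUM A and -0.38 without rhLUM C).

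Of 21 regulators 14 rose and 4 fell. TXNIP, a glucose-induced inhibitor of glucose uptake, had 49.7, 49.1 and 50.8 TPM in the rhLUM libraries, against 13.6, 13.4 and 12.6 TPM in the Ctrl libraries. EGLN1, EGLN2 and EGLN3 are prolyl hydroxylases that mark hypoxia-inducible factors for removal. EGLN3 had 9.01, 12.2 and 10.7 TPM in the rhLUM libraries, against 51.2, 49.9 and 50.9 TPM in the Ctrl libraries, and EGLN1 had 59.5, 61.3 and 67.6 TPM in the rhLUM libraries, against 26.2, 25.9 and 25.6 TPM in the Ctrl libraries. For TXNIP, EGLN3 and EGLN1 the groups lay far apart, with log2 fold changes of 1.84, -2.16 and 1.25 (limma adjusted p = 1.81e-07, 1.92e-06 and 1.55e-06). EGLN2 averaged 37.9 ± 1.32 TPM in rhLUM and 35.4 ± 3.59 TPM in Ctrl with overlapping libraries and was not called (95% confidence interval of the change -0.08 to 0.28). HIF1A itself averaged 95.8 ± 3.93 TPM in rhLUM and 90.9 ± 2.88 TPM in Ctrl with overlapping libraries and was not called (95% confidence interval of the change -0.02 to 0.17). GCKR, a regulatory protein of hepatocytes, fell, with 14.9, 14.1 and 12.4 TPM in the rhLUM libraries, against 39.0, 41.3 and 46.5 TPM in the Ctrl libraries. HNF4A, a regulator of hepatocyte genes, changed by 1.07 on the log2 scale.

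**Figure D5:**
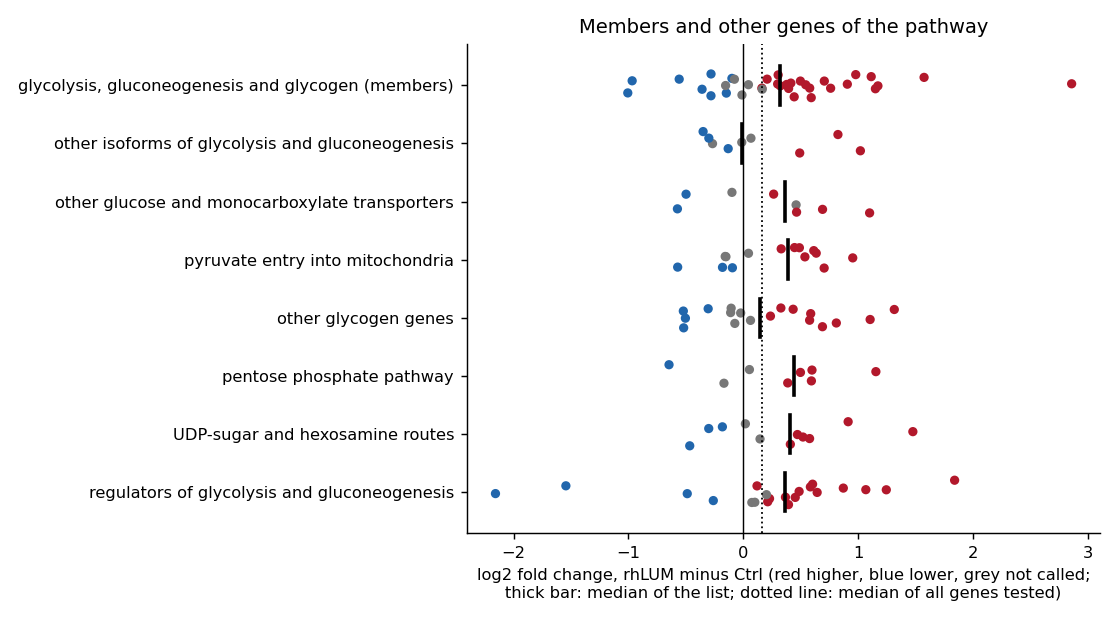
Each point is the log2 fold change of 1 tested gene as deposited, rhLUM minus Ctrl, for the 35 tested members (top row) and 7 lists of other genes of the pathway. Red marks genes higher in rhLUM, blue lower and grey not called, the thick bar is the median of the list, which ran from -0.013 to 0.44 over the 7 lists, and the dotted line is the median of all genes tested at 0.16.

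Markers of cell types were read for the same libraries. The 10 hepatocyte and hepatocellular carcinoma markers summed to 4722 to 4744 TPM in rhLUM and 2673 to 2696 TPM in Ctrl. Of these, 8 reached the filter, 6 rose and 1 fell, and KRT8 alone gave 2465 to 2484 TPM in rhLUM and 1057 to 1066 TPM in Ctrl. Leukocyte markers (3 of 8 past the filter, 2 higher and 1 lower) summed to 302 to 305 TPM in rhLUM and 222 to 223 TPM in Ctrl, of which LYZ gave 238 to 244 TPM in rhLUM and 178 to 182 TPM in Ctrl. Adipocyte markers (2 of 6 past the filter, 1 higher) summed to 69.4 to 76.6 TPM in rhLUM and 34.9 to 38.3 TPM in Ctrl, nearly all from CIDEC, with ADIPOQ listed at 0 in all 6 libraries. Fibroblast markers (4 of 8 past the filter, 1 higher and 1 lower) summed to 9.99 to 13.8 TPM in rhLUM and 14.5 to 15.3 TPM in Ctrl. DCN averaged 1.26 TPM in rhLUM and 7.96 TPM in Ctrl, while COL1A1 averaged 5.11 and 3.30 TPM and COL1A2 2.59 and 1.65 TPM in that order. Endothelial markers (3 of 8, 1 higher and 1 lower) summed to 26.9 to 31.8 TPM in rhLUM and 21.7 to 23.0 TPM in Ctrl. PECAM1 averaged 25.3 TPM in rhLUM and 16.4 TPM in Ctrl, and CDH5 0.45 and 3.10 TPM in that order. Erythroid markers (1 of 7, not called, with AHSP at 0 throughout) summed to 2.09 to 2.91 TPM in rhLUM and 3.09 to 3.51 TPM in Ctrl. The tumours were xenografts of a human line, the build was human and any removal of host reads is not given. These values can therefore come from MHCC97L cells themselves or from host reads, and they do not count cells of each type. Their part in the changes of the members was not tested.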

How the data were processed

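RNA came from MHCC97L xenografts, and libraries were prepared with a KAPA mRNA HyperPrep kit for an Illumina NovaSeq, per the labels' protocols. The submitters' processing notes name STAR 2.7.8, RSEM 1.2.31 and the build GRCh38. The sources used here do not give the annotation release, the use of strand or any removal of host reads. The authors deposited TPM, 1 table per library, per the file headers. TPM keeps no depth, so precision was read from the spread of the libraries.

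From these values, 2210 rows that shared a symbol were left out. Genes whose mean reached 1 TPM were fitted with limma 3.58.1 (R 4.3.3) on log2(TPM + 1), with a variance trend and group as the only term, two-sided. Sums and shares used exact permutation tests (SciPy 1.17.1). The script was tested on simulated data. The 40 members, the lists and the tests were chosen with earlier results of these data known. Values of all libraries are given for called members with a change of at least 0.5 and for the most abundant member of each step, and up to 5 called genes with the largest change are named per list, except some not reported here; BSG, HIF1A, PYGM, SLC2A14, LDHA, ABHD12 and other genes set beside a member were chosen after their values were seen. Coordinates come from GENCODE release 29 (GRCh38), promoters from RefSeq.

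Alternatives were a pseudocount of 0.1, 3 other scalings, no filter, at least 1 TPM in all 6 libraries, no variance trend, a replicate block, shared symbols summed, a loess correction for transcript length and GC content (known for 86.9% of genes tested), limma's test against a fold change of 1.2, and leaving out each library. Their use for sums and for the other lists was chosen after seeing the data. The labels name no batch.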

Additional observations from a re-analysis of the deposited data

How the results depend on the processing

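Of the 30 called members, 13 kept their call and direction under every alternative: HK1, PFKP, ALDOC, PGK1, PGAM1, PKM, PGM1, PGM2, GBE1 and PYGB as higher and SLC2A3, ENO2 and PYGL as lower. PGM5 is left out here, since its Ctrl values were under the filter and it could not be tested with 1 TPM required in every library. PFKM lost its call only after upper quartile scaling, and 27 of the 30 kept theirs on leaving out any 1 library, where 21 to 23 members were higher and 6 to 7 lower. Over all 14781 genes those fits gave 6140 to 6282 higher and 2973 to 3124 lower. With a replicate block 22 were higher and 8 lower, as without it. Deviations of same-lettered libraries (A, B and C) correlated at 0.029, -0.023 and 0.084 across genes, the last being the highest of all pairs. Not every library correlated best with its own letter. With 3 libraries per group such values cannot exclude a pairing by letter. Among the members and the genes named from the other lists, the block changed only the call of SLC5A9, and over all genes it gave 6429 higher and 3219 lower, against 6571 and 3299 without it.

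Upper quartile scaling gave 11 members higher and 13 lower, the correction for length and GC content 19 and 13, limma without the variance trend 22 and 5, and the test against a fold change of 1.2 gave 18 and 3. Over all genes these settings gave, in that order, 3532 higher and 6193 lower, 4340 and 4113 of 12850 tested, 6534 and 3230, and 4190 and 1811. The other genes of the pathway, 49 higher and 20 lower as deposited, were 28 and 36 after upper quartile scaling, 32 and 28 after the correction, and 32 and 8 against a fold change of 1.2, where PC, SLC37A4, SLC5A9, SLC2A6, PDK2 and PPP1R3F lost their calls. Median-of-ratios scaling gave 18 members higher and 11 lower. Over all genes the share of higher among called genes was 66.6% as deposited, 52.7% after median-of-ratios scaling, 57.1% without mitochondrial genes, 36.3% after upper quartile scaling and 51.3% after the correction.

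Directions turned for 17 of 594 member values. They were PFKFB2 at -0.015 (upper quartile) and -0.16 (correction), ENO1 at -0.12 (median-of-ratios), -0.31 (upper quartile), -0.069 (no mitochondrial genes) and -0.11 (correction), LDHB at -0.051, FBP1 at -0.17 and PCK2 at -0.0063 (upper quartile), SLC16A1 at -0.0017 (median-of-ratios), -0.18 (upper quartile) and -0.18 (correction), UGP2 at -0.15 under both upper quartile scaling and correction, ALDOA at 0.0031 without Ctrl A, and ENO3 at 0.0985 without Ctrl A and 0.0727 without rhLUM C, in a range that reached -0.23 without Ctrl C. Log2 ratios of summed TPM turned for aldolases (-0.16 after median-of-ratios scaling, -0.35 after upper quartile scaling, -0.11 without mitochondrial genes, -0.0193 without Ctrl B and -0.0034 without rhLUM A, with up to 0.0211 without Ctrl A), for TPI1, GAPDH, PGK1 and PGAM1 together (-0.093, -0.28 and -0.038 under those 3 scalings), and after upper quartile scaling for lactate dehydrogenase (-0.0059), glycogen synthesis (-0.072) and all members (-0.15). Each of the 3 scalings multiplies all genes of a library by 1 factor. The cause of the other changes was not tested. The depth is unknown, so what it limits cannot be stated.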
